A study of Mus musculus with 28 samples.

Results

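The liver response to a diet high in fat and cholesterol was measured gene by gene in control male mice. Of the 28 animals in the series 8, or 4 on each diet, were taken by their labels from the table of the male livers, and every gene of that table was considered. These males are C57BL/6 mice called floxed controls (CT), the comparison animals for a line in which endothelial c-Myc can be deleted. They too received tamoxifen, at 5 weeks of age, and 2 weeks later went for 5 weeks onto a low-fat control diet (CTD) or the high-fat/cholesterol diet (HFC). The labels give an age of 13 weeks, while these steps add to 12. Neither the Cre driver nor whether the controls carry Cre is stated in the labels. Tamoxifen and the floxed alleles are therefore shared by both diets, and the comparison holds only for mice so treated. The animals were CTD 301, 305, 313 and 320 and HFC 416, 417, 418 and 543, and values below follow that order. Animal numbers of the diets fall in separate ranges, so cohort and diet cannot be told apart.

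Whole liver is mostly hepatocytes, which make bile acids from cholesterol, build and burn fat, detoxify foreign compounds and secrete plasma proteins. Dietary cholesterol and the bile acids made from it act on nuclear receptors and on the membrane-bound SREBP factors, which set the output of sterol and bile acid enzymes. Kupffer cells, the resident macrophages, together with sinusoidal endothelium, stellate cells, bile duct cells and circulating leukocytes make up the rest of the tissue. In RNA from whole liver, a change in the number of cells of a type and a change in RNA per cell cannot be told apart.

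Libraries held 22154774 to 22387076 counts, with 17096 to 17732 genes detected. Albumin (Alb), the main hepatocyte product, was at 44600 to 75300 CPM (counts scaled to library size, after TMM normalisation) in all 8 livers, and 12 of 20 marker genes of other organs were too low to test, with 0 of the other 8 called by edgeR or DESeq2 and 0 at an unadjusted p under 0.05. Myc itself was at 6.09, 4.73, 7.8 and 7.05 CPM on CTD and at 6.29, 3.58, 11.3 and 12.4 CPM on HFC (log2 fold change 0.39, SE 0.56, adjusted p = 0.668). On the leading principal component, with 49.7% of the variance, the CTD livers scored -37.4, -37.3, -40.0 and -16.3 and the HFC livers 31.9, 16.7, 52.6 and 29.9. Diets were separate on that axis. On the next, with 13.4%, CTD 320 stood apart at -45.0 while the other 7 livers lay between 0.759 and 21.4. HFC 418 lay at the far end of the leading component. For genes checked singly, where leaving out CTD 320 or HFC 418 changed a call, a direction or a size by much, the value without it is given. The 22 genes added after their values were seen lack such a gene-by-gene check.

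**Figure D1:**
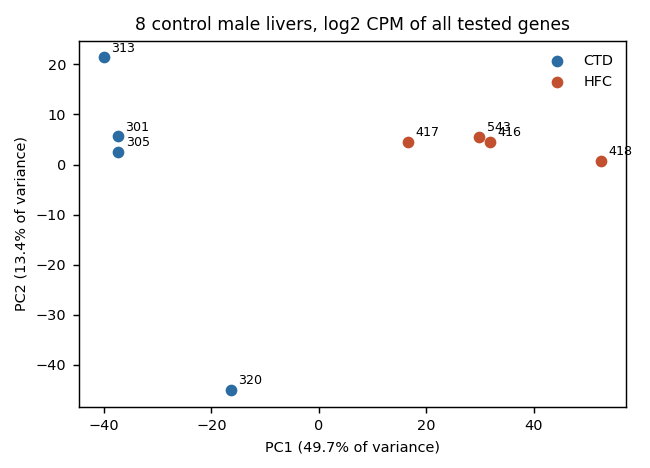
Principal components of log2 CPM in the 8 control male livers, with the share of variance on each axis. CTD and HFC livers are separate along the horizontal axis, and CTD 320 lies at -45.0 on the vertical axis, away from the other 7.

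Livers on HFC differed from livers on CTD in genes of several liver functions and cell types. Genes of macrophages, antigen presentation and foreign-compound metabolism rose, and genes of bile acid synthesis, sterol synthesis, respiration and the urinary proteins fell. Of 14078 genes that passed the filter on low counts, out of 32544 in the table, 2820 (20.0%) were called, meaning an adjusted p under 0.05 by edgeR's quasi-likelihood F test. HFC was higher for 1497 (10.6%) and lower for 1323 (9.40%). All 4 HFC animals lay above or below all 4 CTD animals for 3045 genes (21.6%). Counts per gene list below are to be set against these shares of all tested genes, and several lists with few calls lie near or below them. The median log2 fold change of all tested genes was -0.01 and the median size among called genes 0.57, and large rises outnumbered large falls, with 541 called genes over 1 and 179 under -1. Sizes of falls are relative to TMM scaling, because with library totals as the scale the median of all genes moved to 0.22, with 4125 genes called higher and 410 lower. Leaving out HFC 418 lowered the number of calls the most, to 1753, and leaving out CTD 320 raised it to 3374.

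The smallest p-values belonged to genes that held nearly the same level within each diet. Adam11 (chromosome 11, 102761439 to 102780262, GRCm38), a member of the ADAM family of membrane proteins, was at 10.9, 8.11, 11 and 8.8 CPM on CTD and at 51.2, 54.9, 52.5 and 65.3 CPM on HFC. Its lowest HFC value was far above its highest CTD value (log2 fold change 2.53, SE 0.17, adjusted p = 1.25e-06). Tmem141, a small membrane protein, moved from 5.89 to 7.23 CPM on CTD to 13.8 to 16.1 CPM on HFC (log2 1.17, SE 0.09). F11, coagulation factor XI made by hepatocytes, was at 94.9, 94.1, 79 and 74.4 CPM on CTD and at 31.2, 42, 35.1 and 33.4 CPM on HFC (log2 -1.27, SE 0.10, adjusted p = 2.98e-06). Also without overlap were Rasgrp1, a Ras activator of lymphocytes (1.59), Atp1b3, a sodium pump subunit (0.84), Cd180, a Toll-like receptor homologue of B cells and macrophages (1.76), Ifi47, an interferon-induced GTPase (1.18), Tm4sf4, a membrane protein of liver and gut (1.20), and Cela1, an elastase (-1.62).

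Bile acid synthesis from cholesterol was lower on HFC at its rate-limiting step and at its branch point. In the classical pathway Cyp7a1 sets the rate and Cyp8b1 directs products to cholic acid, while Cyp27a1 and Cyp7b1 serve the alternative pathway. Cyp7a1 (chromosome 4, 6265612 to 6275633) was at 149, 155, 357 and 53.2 CPM on CTD and at 7.71, 13.4, 3.23 and 15.3 CPM on HFC (log2 -4.17, SE 0.66, adjusted p = 0.00114). Cyp8b1 (chromosome 9, 121914356 to 121916305) was at 123, 165, 152 and 118 CPM on CTD and at 0.293, 0.441, 0.199 and 3.36 CPM on HFC. Every HFC liver lay far below every CTD liver for both genes, and HFC 543 kept the most of Cyp8b1 (log2 -7.01 with it, -8.80 without it). Cyp27a1 fell by less, from 391 to 458 CPM to 256 to 317 CPM (log2 -0.58). For Cyp7b1, at 141, 217, 231 and 29.8 CPM on CTD against 14.6, 36.6, 14.6 and 59.2 CPM on HFC, the diets overlapped through CTD 320 (log2 -2.31, adjusted p = 0.0443). That call was lost when any animal but CTD 320 or HFC 543 was left out, with adjusted p between 0.073 and 0.123. Of 16 tested synthesis genes 6 fell and 0 rose, with a median of -0.23 that became 0.00 with library totals. Without CTD 305, CTD 313, HFC 416 or HFC 418 only 3 of them were called.

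Transporters of bile acids moved in both directions. Carriers for uptake from blood fell. Slc10a1, the sodium-dependent uptake carrier NTCP, went from 815 to 1030 CPM on CTD to 313 to 477 CPM on HFC (log2 -1.17, SE 0.18, adjusted p = 0.000373), and Slco1a1, an organic anion uptake carrier, was at 738, 623, 535 and 430 CPM against 84.9, 298, 35.6 and 211 CPM (log2 -1.88). Exporters rose. Slc51b, the beta chain of the OST exporter of the basolateral membrane, was at 0.396, 0.398, 0.364 and 0.314 CPM on CTD and at 4.11, 1.94, 3.59 and 1.99 CPM on HFC (log2 2.97, SE 0.35, adjusted p = 6.62e-05). Abcb1a, the multidrug pump, was at 4.16, 4.18, 4 and 4.98 CPM against 31.3, 14.7, 43.2 and 14.6 CPM (log2 2.58, SE 0.36). HFC 416 and 418 were the highest livers for both. Smaller rises were called for the canalicular pumps Abcb11 (0.39) and Abcb4 (0.37) and the basolateral pumps Abcc3 (0.95) and Abcc4 (1.80). Nr0b2, which encodes SHP, the repressor induced by the bile acid receptor FXR, rose from 24, 24.4, 17.9 and 22.1 CPM to 68.3, 63.6, 53.7 and 39.7 CPM (log2 1.35, SE 0.22). Nr1h4, FXR itself, was slightly lower (log2 -0.43, adjusted p = 0.0102, and -0.20 with adjusted p = 0.106 on library totals). Fgfr4, the receptor for the gut signal FGF15, was at log2 -0.10 (adjusted p = 0.384). Of 16 tested transport and FXR genes 7 rose and 4 fell (median 0.33), and 2 fell without CTD 301, CTD 305, CTD 313, HFC 418 or HFC 543. The number that rose was 5 without CTD 305, CTD 313 or HFC 418. Calls of Slco1a1, Abcb11, Abcb4, Abcc3 and Abcc4 were not checked singly in these fits.

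Cholesterol synthesis enzymes were lower on HFC, and the sterol export genes driven by the oxysterol receptor LXR were higher. Synthesis is controlled by SREBP2, which is released when membrane cholesterol is low. Nsdhl, a late sterol demethylation enzyme, was at 33.2, 40, 26.8 and 59.9 CPM on CTD and at 14.2, 12.6, 10.2 and 8.22 CPM on HFC (log2 -1.82, SE 0.24, adjusted p = 0.000222). No HFC liver reached the lowest CTD liver. The same held for Fdps, farnesyl diphosphate synthase (log2 -1.88), Sqle, the squalene epoxidase (-1.69), Idi1, an isoprenoid isomerase (-1.55), and Tm7sf2, a sterol reductase (-1.26). Of 25 tested genes of the SREBP2 program 15 fell and 0 rose (median -0.74).

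Sterol efflux genes rose in all HFC livers. Abcg1, an exporter of cholesterol to HDL, was at 6.68, 7.91, 9.72 and 8.75 CPM on CTD and at 22.7, 21.8, 31.4 and 26.5 CPM on HFC (log2 1.63, SE 0.16, adjusted p = 1.72e-05). Abcg5, which moves sterols into bile, went from 121 to 153 CPM to 266 to 382 CPM (log2 1.25). Soat2, which esterifies cholesterol for storage, went from 25.3 to 30.2 CPM to 41.1 to 66.7 CPM (log2 0.93), and Lpl, lipoprotein lipase, from 20.6 to 37.7 CPM to 73.5 to 181 CPM (log2 2.07). Diets did not overlap for any of these 4 genes. Of 12 tested LXR and efflux genes 8 rose and 0 fell (median 0.60).

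Fat synthesis split by enzyme. Thrsp, a nuclear protein that follows lipogenesis, was at 343, 389, 401 and 662 CPM on CTD and at 151, 150, 82.6 and 92.5 CPM on HFC (log2 -1.91, SE 0.27, adjusted p = 0.000425). Acss2, which makes acetyl-CoA from acetate, fell from 108 to 262 CPM to 58.5 to 70.3 CPM (log2 -1.33). Fasn, the fatty acid synthase, was at 392, 523, 330 and 1350 CPM on CTD and at 458, 421, 326 and 225 CPM on HFC, where CTD 320 alone exceeded the range of the rest (log2 -0.86, adjusted p = 0.129, and -0.21 without CTD 320). Scd1, the stearoyl-CoA desaturase, was at 10500 to 20900 CPM on CTD and 12100 to 17700 CPM on HFC (log2 0.11, adjusted p = 0.737), and Srebf1, the lipogenic SREBP, was at log2 0.31 (adjusted p = 0.319). Of 23 tested lipogenic genes 11 fell and 1 rose (median -0.53), and 4 fell with library totals. The number that fell was 5 without CTD 301 or HFC 418, 6 without CTD 320 and 7 without CTD 305 or HFC 543.

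Fat burning, storage and export genes showed small and mixed changes. Ehhadh and Acaa1b, peroxisomal oxidation enzymes and classical PPAR alpha targets, rose by log2 1.35 and 0.81, with Ehhadh at 283, 223, 148 and 215 CPM on CTD and at 685, 375, 682 and 475 CPM on HFC. Cpt1a, the mitochondrial fatty acid gate, fell instead, from 752, 720, 760 and 639 CPM to 536, 538, 482 and 502 CPM (log2 -0.48, SE 0.09, adjusted p = 0.00139). The peroxisomal and the mitochondrial enzyme thus moved oppositely in every HFC liver. Fgf21, a fasting and stress hormone, was high in HFC 416 and 418 at 34.1 and 25.5 CPM, while HFC 417 and 543 were at 2.78 and 1.74 CPM, close to the 1.24 to 2.29 CPM of CTD. Its call (log2 3.27, adjusted p = 0.0298) was lost when any animal other than HFC 417 or 543 was left out, with adjusted p of 0.0524 to 0.0791. Of 25 tested oxidation genes 3 rose and 5 fell, with a median of -0.12 that turned to 0.11 with library totals, and 3 fell without CTD 305 or HFC 418. Among 21 lipid droplet and uptake genes 1 rose, Plin3, a droplet coat protein (0.58), and 3 fell, with a median of -0.17 that turned to 0.06 with library totals and to 0.02 without CTD 320. For both lists these counts stand beside 10.6% higher and 9.40% lower among all tested genes. The droplet coat gene Plin2 was at 255 to 378 CPM on CTD and 296 to 463 CPM on HFC (log2 0.18, adjusted p = 0.56). Cd36, a fatty acid translocase, was at 39.6, 32.1, 21.3 and 78.4 CPM against 120, 43.3, 121 and 68.3 CPM (log2 1.04, adjusted p = 0.118, and 1.51 with adjusted p = 0.0233 without CTD 320). Of 19 apolipoprotein and assembly genes 4 fell, led by the HDL protein Apom (log2 -0.67, SE 0.10), and 1 rose (median -0.26), against 1 and 2 with library totals (median -0.04).

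Respiratory chain genes fell together by a small and even amount. Sdhd, the membrane anchor of complex II, was at 120, 120, 119 and 124 CPM on CTD and at 84, 87.4, 81 and 88.8 CPM on HFC (log2 -0.50, SE 0.08, adjusted p = 0.000363). Cox5b of complex IV went from 103 to 134 CPM to 78.6 to 89 CPM (log2 -0.50), and mt-Co1, encoded in mitochondria, from 28100 to 33200 CPM to 22800 to 24700 CPM (log2 -0.42). All 4 HFC livers lay below all 4 CTD livers for 33 of 39 tested genes, against 10.2% of all tested genes. Of the 39, 32 fell and 0 rose (median -0.35). With library totals 9 fell and the median was -0.12, so both the count and the size depend on the scale.

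Many enzymes of amino acid and one-carbon metabolism and some of glucose metabolism fell on HFC. Bhmt (chromosome 13, 93616675 to 93637961), which remethylates homocysteine with betaine, was at 1780, 1730, 2300 and 892 CPM on CTD and at 145, 254, 233 and 245 CPM on HFC (log2 -2.93, SE 0.38, adjusted p = 0.000242). Dmgdh, the next enzyme of betaine breakdown, went from 280 to 387 CPM to 162 to 181 CPM (log2 -0.90). Neither gene overlapped between diets. Of 23 tested one-carbon and methionine genes 10 fell and 1 rose (median -0.34), against 8 and 5 with library totals (median -0.11). Got1, a cytosolic transaminase, was at 227, 195, 249 and 203 CPM against 65.5, 97.7, 54.2 and 113 CPM (log2 -1.41, SE 0.25), Asl, the urea cycle lyase, fell by 0.93, and Slc25a13 and Slc25a15, the mitochondrial carriers of aspartate and ornithine, fell by 0.58 and 0.72. Of 21 urea cycle and amino acid genes 12 fell and 0 rose (median -0.56), and 6 fell without CTD 313, HFC 416 or HFC 418. On library totals 7 fell and 2 rose (median -0.33).

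Among glucose genes Pfkfb1, the bifunctional regulator of glycolysis, was at 58.7, 50.1, 46.6 and 46.2 CPM on CTD and at 18.6, 22.1, 17.1 and 15.6 CPM on HFC (log2 -1.46, SE 0.21, adjusted p = 0.000414). Pklr, the liver pyruvate kinase, went from 261 to 447 CPM to 158 to 227 CPM (log2 -0.90). HFC livers were the lower for both. The glucose phosphatase gene G6pc was at 399, 460, 751 and 521 CPM against 346, 258, 106 and 205 CPM (log2 -1.22, adjusted p = 0.0533), and Pck1, the gluconeogenic carboxykinase, was at log2 -0.49 (adjusted p = 0.121). Of 26 tested glucose genes 10 fell and 3 rose (median -0.39), against 5 and 5 with library totals. Some genes that Wnt signals keep on around the central vein fell too. Gulo, the last enzyme of vitamin C synthesis, was at 358 to 444 CPM on CTD and 135 to 234 CPM on HFC (log2 -1.12, SE 0.15), while Glul, glutamine synthetase, was at 911, 907, 1150 and 938 CPM against 619, 717, 442 and 771 CPM (log2 -0.62). The Glul call was lost without CTD 313, HFC 416 or HFC 418 (adjusted p = 0.0791, 0.0548 and 0.0835) and with library totals (0.0695). Of 16 pericentral genes 5 fell and 0 rose (median -0.42), with 2 falling when any 1 of those 3 animals was left out and 3 without CTD 305. On library totals 2 fell and 1 rose (median -0.18).

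Most genes of secreted urinary proteins fell on HFC, with wide spread among animals, and so did some other genes that depend on the pulsed growth hormone pattern of males. Mup7 (chromosome 4, 60066469 to 60070475), a major urinary protein, was at 6600, 14900, 23400 and 1530 CPM on CTD and at 6.66, 99.9, 2.67 and 170 CPM on HFC (log2 -7.38, SE 1.67, adjusted p = 0.00876). HFC 416 and 418 had the least, and CTD 320 the least on its diet. Mup3 went from 9490 to 12100 CPM to 1110 to 4210 CPM (log2 -2.05). Mup20, the male pheromone darcin, was at 8660, 14300, 15700 and 3480 CPM on CTD and at 8850, 17400, 10100 and 19400 CPM on HFC, with overlap (log2 0.41, adjusted p = 0.493). Of 20 tested Mup genes 15 fell and 0 rose (median -3.40), and their summed level was 40600 to 120000 CPM on CTD and 12300 to 33400 CPM on HFC. Mup genes are near-identical copies, so counts of single members are uncertain.

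Other male-type genes also varied among the HFC animals. Selenbp2, a selenium-binding protein, was at 173, 309, 240 and 30.9 CPM on CTD and at 7.46, 12, 10.5 and 38.1 CPM on HFC (log2 -3.47, SE 0.79, adjusted p = 0.0089), where HFC 543 overlapped with CTD 320. Hsd3b5, a male-specific steroid reductase, was at 202, 126, 86.1 and 93.2 CPM against 6.79, 70.2, 1.64 and 36.4 CPM (log2 -2.15, adjusted p = 0.12). HFC 416 and 418 were lowest for Hsd3b5, and the 4 CTD livers were all higher than the 4 HFC livers although the gene was called only without HFC 417 (-3.09, adjusted p = 0.0477). The protease inhibitor Serpina1e, a member of a family of close copies, was at 4020, 5870, 8210 and 1280 CPM against 30.9, 510, 25.4 and 182 CPM (log2 -4.70, adjusted p = 0.00799, and -5.93 without HFC 417). Its call was lost with the 8 libraries fitted alone (-4.69, adjusted p = 0.0512). Mup7, counted above among the Mup genes, is also in the list of male-predominant genes. Of the 17 tested genes of this list 7 fell and 0 rose (median -0.86), with 4 falling without CTD 301 or HFC 416 and 3 without HFC 418. Relative to the CTD mean, the median of that list was 0.07, 0.40, 0.29 and -0.85 log2 in the CTD livers and -1.85, -0.59, -1.64 and -0.73 in the HFC livers. CTD 320 lay below HFC 417 and 543 on this list.

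Female-predominant genes did not move as a block. Cyp2a4, a steroid hydroxylase, was at 7.48, 0.946, 0.624 and 22.9 CPM on CTD and at 237, 108, 442 and 110 CPM on HFC (log2 4.79, SE 1.14, adjusted p = 0.0117, and 6.21 without CTD 320). Prom1, a membrane glycoprotein of progenitor cells, rose by 2.50 (1.79 without HFC 418). Cyp17a1, the steroid lyase, fell from 41.6, 27.9, 41.1 and 53.6 CPM to 7.88, 7.81, 5.62 and 4.4 CPM (log2 -2.68, SE 0.35), and Cyp2c40, an arachidonate hydroxylase of a cluster of close copies, from 32.4, 38.4, 18.3 and 103 CPM to 2.6, 2.07, 1.4 and 0.083 CPM (log2 -4.97, and -4.27 without CTD 320). Diets were separate for Cyp2a4, Cyp17a1 and Cyp2c40. Of 18 tested female-predominant genes 5 rose and 4 fell (median 1.06), with 11 others too low to test, and 3 rose without CTD 305, HFC 416 or HFC 418 (median 0.63 without HFC 416). Of 15 growth hormone signalling genes 0 rose and 2 fell (median 0.05). They were Ghr, the receptor, at 497, 532, 489 and 474 CPM against 348, 424, 274 and 388 CPM (log2 -0.47, adjusted p = 0.0243), and the binding protein Igfbp4 (-0.39). Neither Ghr (log2 -0.37, adjusted p = 0.088) nor Igfbp4 (-0.33, adjusted p = 0.086) was called without HFC 418, nor was Ghr without CTD 305 (adjusted p = 0.0689) or HFC 416 (0.0546), nor Igfbp4 without CTD 313 (0.0738) or HFC 416 (0.0707). With library totals neither was called (Ghr adjusted p = 0.125, Igfbp4 0.199). Stat5b, the signal transducer (0.24, adjusted p = 0.146), and the growth factor Igf1 (-0.34, adjusted p = 0.152) were not called. Both were called without CTD 320 (Stat5b 0.33, adjusted p = 0.0402, and Igf1 -0.48, adjusted p = 0.0171), and Stat5b with library totals (0.46, adjusted p = 0.00964).

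**Figure D2:**
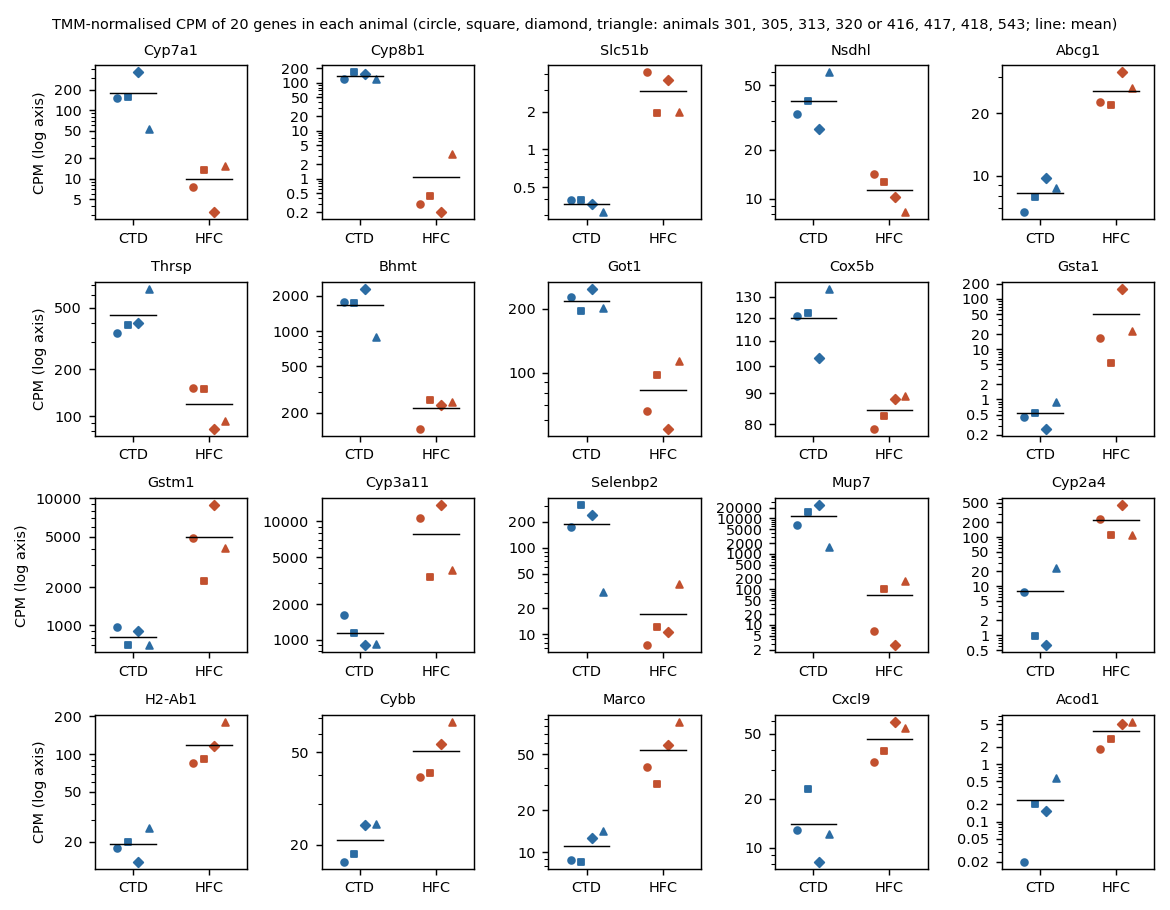
TMM-normalised CPM of 20 genes in each of the 8 livers on a log axis, with marker shapes for the animals as given in its title. Acod1 in CTD 301 was 0 and is drawn at the axis floor of 0.02 CPM, HFC 418 is the highest for Gsta1, and HFC 416 and 418 are the lowest for Mup7.

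Enzymes that conjugate and clear foreign compounds held the largest rises of all, with sizes that differed strongly between HFC animals. Gsta1 (chromosome 9, 78230656 to 78242684), a glutathione transferase, was at 0.446, 0.548, 0.26 and 0.898 CPM on CTD and at 16.6, 5.39, 159 and 23 CPM on HFC (log2 6.53, SE 1.34, adjusted p = 0.00502). Gstm3 was at 34.4, 18.9, 23.5 and 19 CPM against 676, 56.3, 2700 and 131 CPM (log2 5.22). Gstm1, the most abundant of these, was at 971, 702, 894 and 695 CPM against 4890, 2240, 8830 and 4050 CPM (log2 2.62, SE 0.37). HFC 418 was the highest and HFC 417 the lowest HFC liver for all 3, and no HFC value reached down to CTD. Without HFC 418 the log2 fold change was 4.76 for Gsta1 and 3.59 for Gstm3. Of 22 tested glutathione transferases 8 rose and 1 fell (median 0.46, and 0.19 without HFC 418), and 13 rose with library totals. Gsta1 shares near-identical sequence with its neighbour Gm10639 (log2 6.16, with 6.86 without CTD 320 and 4.42 without HFC 418), and counts may be split between them.

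Targets of NRF2, the factor released by oxidants and electrophiles, rose broadly. Gclc and Gclm, the catalytic and regulatory subunits of glutathione synthesis, went from 153 to 270 CPM to 379 to 591 CPM (log2 1.16) and from 155 to 184 CPM to 232 to 266 CPM (log2 0.52, SE 0.08, adjusted p = 0.000527). Ephx1, the microsomal epoxide hydrolase, was at 198, 201, 248 and 135 CPM on CTD and at 682, 430, 805 and 640 CPM on HFC (log2 1.71, SE 0.24), and Hmox1, heme oxygenase, went from 13.1 to 20.5 CPM to 23.3 to 48.1 CPM (log2 1.16). The 4 HFC livers stood above the 4 CTD livers for these 4 genes. Nqo1, the quinone reductase (1.31), Txnrd1, thioredoxin reductase (0.29), and Nfe2l2, which encodes NRF2 (0.46), were higher too. Of 18 tested NRF2 genes 13 rose and 0 fell (median 0.73). The number that rose was 10 without CTD 305 or HFC 418, and the median was 0.5 without HFC 418. Relative to the CTD mean, the median of this list was 0.6, 0.38, 1.21 and 0.61 log2 in the HFC livers, highest in HFC 418.

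The core of the antioxidant response element to which NRF2 binds, TGACNNNGC on either strand, occurred in the 300-base promoter window (250 bases before to 50 after the RefSeq start) of 7 of the 16 NRF2 genes with a window, or 43.8%. Of all 10463 tested genes with a window, 1763 (16.8%) held it, and of 20 glutathione transferases 4 (20.0%) did. Among called genes with a window, 5 of 11 NRF2 genes and 0 of 8 glutathione transferases held it. A match is a description of letters and not a measured site. Gclm and Txnrd1, which were both higher in every HFC liver, are shown as examples from RefSeq GRCm38.p6 on the gene's strand, with the matched letters in capitals. Both matches read as the reverse complement of the core. The Gclm stretch is chr3:122245393-122245461 on the plus strand, with the match 134 bases before the start, and the Txnrd1 stretch is chr10:82859084-82859152 on the plus strand, with the match 92 bases before it.
Gclm: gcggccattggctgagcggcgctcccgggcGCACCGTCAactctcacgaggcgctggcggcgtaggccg
Txnrd1: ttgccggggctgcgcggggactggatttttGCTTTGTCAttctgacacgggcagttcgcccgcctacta

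Drug-inducible cytochromes and other detoxifying families followed with mixed signs. Cyp3a11 (chromosome 5, 145854426 to 145879964), the main inducible CYP3A enzyme, was at 1630, 1140, 895 and 920 CPM on CTD and at 10600, 3420, 13700 and 3920 CPM on HFC (log2 2.79, SE 0.44, adjusted p = 0.000841). Cyp2a5, a coumarin hydroxylase, was at 347, 314, 341 and 292 CPM against 698, 357, 1920 and 993 CPM (log2 1.62), and Cyp2b10, the classical CAR target, at 1.39, 1.24, 1.4 and 2.02 CPM against 7.42, 1.24, 20.5 and 3.78 CPM (log2 2.44, adjusted p = 0.0528, and 1.45 without HFC 418). HFC 418 was again the highest for all 3, and HFC 417 the lowest on its diet. The receptors PXR (Nr1i2, log2 -0.17, adjusted p = 0.249) and CAR (Nr1i3, 0.29, adjusted p = 0.346) were not called in the main fit. CAR was called with library totals (0.53, adjusted p = 0.0439) and with the 8 libraries alone (0.3, adjusted p = 0.0412). Cyp2b10 was called by DESeq2 (adjusted p = 0.0129), with library totals (0.026) and without HFC 417 (2.79, adjusted p = 0.0186). The Cyp2a5 call was lost with the 8 libraries alone (adjusted p = 0.0576). Of 19 tested genes of this group 6 rose and 1 fell (median 0.29). Of 18 sulfotransferases and glucuronosyltransferases 2 rose, Ugt2b35 (1.11) and Ugt2b36 (0.49), and 4 fell, with a median of -0.06 (all tested genes 10.6% higher and 9.40% lower). With library totals 9 rose and 2 fell, and the median turned to 0.17. The number that fell was 2 without CTD 305 or HFC 417. Of 12 aldo-keto reductases 4 rose and 1 fell (median 0.11), including Akr1b7, which was at most 0.495 CPM on CTD and at 6.29, 1.1, 17.4 and 2.07 CPM on HFC (log2 4.62, and 3.53 without HFC 418). Of 8 carbonic anhydrases 3 fell and 0 rose (median -0.31), with Car3, the muscle and liver form, at 1540, 1240, 582 and 863 CPM against 362, 324, 152 and 371 CPM (log2 -1.80).

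Among 15 tested transcription factors that define hepatocytes 0 were called by edgeR, 3 had an unadjusted p under 0.05, and DESeq2 called 1. Their median was -0.22 and became 0.01 with library totals. Hnf4a, the central factor of the group, was at 611 to 714 CPM on CTD and 567 to 719 CPM on HFC (log2 -0.01, adjusted p = 0.956). Foxa3, a pioneer factor, was at log2 -0.48 (adjusted p = 0.0589 by edgeR and 0.0335 by DESeq2). Of 13 hepatocyte markers 4 fell, such as the antiprotease Serpina1a, from 4690 to 5800 CPM to 2670 to 4130 CPM (log2 -0.67), and 0 rose (median -0.30), with 1 falling without CTD 313, HFC 416 or HFC 418 and 2 without CTD 301. On library totals 2 fell and 1 rose (median -0.07). Of 22 acute phase genes 1 rose and 0 fell (median -0.29). The gene that rose was Orm3, an orosomucoid, at 1.49, 1.59, 7.54 and 1.53 CPM on CTD and at 15, 16.2, 17.2 and 24 CPM on HFC (log2 2.59, and 3.55 without CTD 313). CTD 313 was high for other acute phase genes too, with serum amyloid Saa1 at 986 CPM against 23.8 to 88.7 CPM in the other CTD livers and 62.8 to 234 CPM on HFC. Without CTD 313, 3 acute phase genes rose and the list median turned to 0.10. Of 27 coagulation and complement genes 6 fell and 1 rose (median -0.23), against 3 and 6 with library totals (median -0.01). Among those that fell was C8b, a chain of the lytic complement complex, at 520, 502, 457 and 360 CPM against 209, 341, 159 and 167 CPM (log2 -1.07). The number that fell was 3 without CTD 305, CTD 313, HFC 416 or HFC 418. Of 18 iron genes 3 rose, namely the transferrin receptor Tfrc (0.83) and the metal carriers Slc11a2 (0.57) and Slc40a1 (0.41), and 1 fell, with a median of -0.04 that turned to 0.19 with library totals. Among all tested genes 10.6% rose and 9.40% fell. Hamp, the iron hormone hepcidin, was at 221 to 361 CPM on CTD and 94 to 256 CPM on HFC (log2 -0.61, adjusted p = 0.23).

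**Figure D3:**
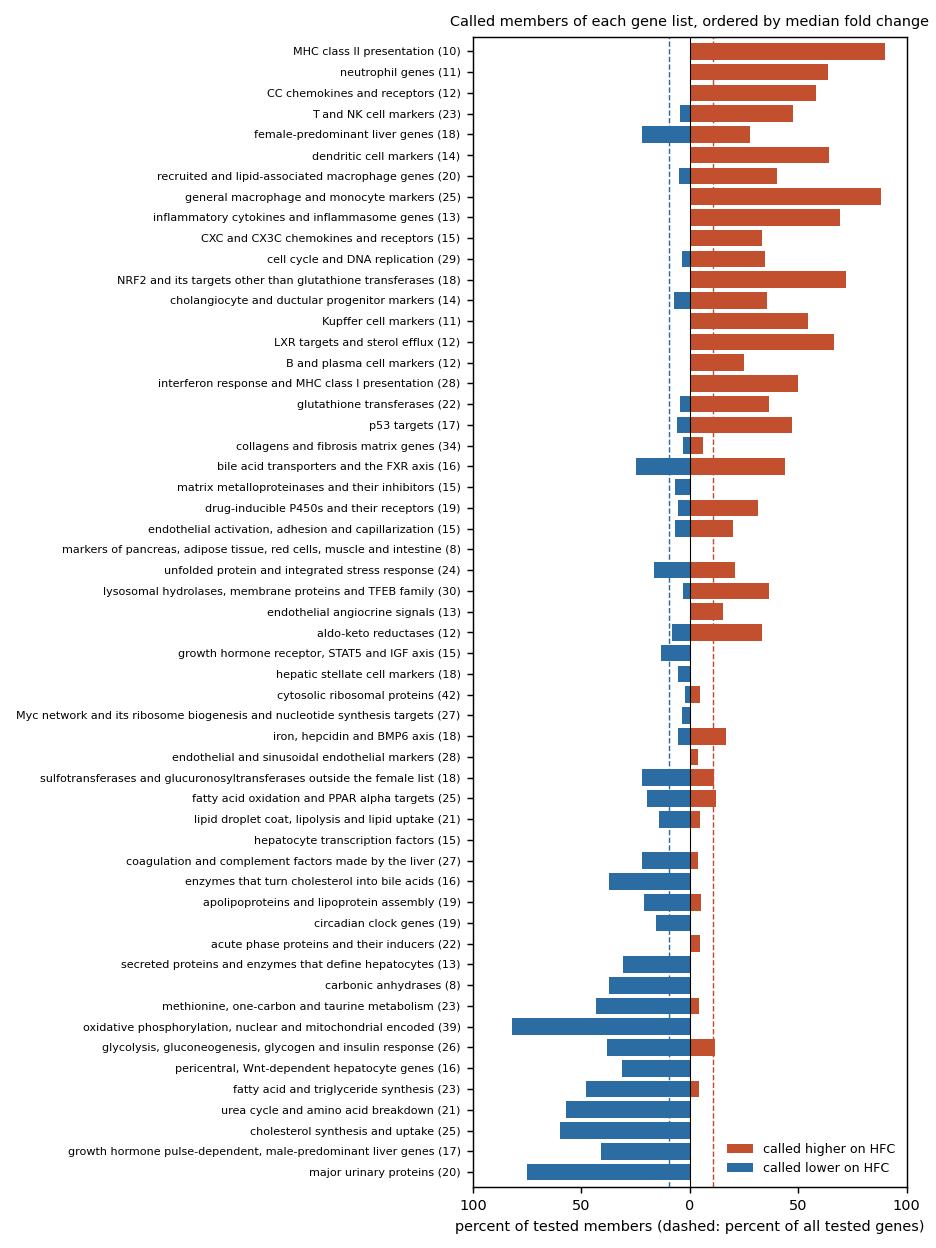
Percent of tested members of each gene list called higher (bars to the right) or lower (bars to the left) on HFC. Lists are ordered by median log2 fold change, and dashed lines mark the shares of all tested genes, 10.6% higher and 9.40% lower. Bars of MHC class II, macrophage and neutrophil genes reach far to the right, and those of Mup, SREBP2 and urea cycle genes far to the left. Medians are not drawn. With library totals as scale, those near 0 change sign for oxidation, lipid droplet, sulfotransferase, iron, endothelial, ribosomal and hepatocyte transcription factor genes.

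Antigen presentation by MHC class II, in which dendritic cells, B cells and macrophages show peptides to helper T cells, gave the highest median of the 55 lists in the main fit. Without CTD 313 the neutrophil list was higher (median 2.11 against 1.93). H2-Ab1 (chromosome 17, 34257689 to 34269419), a beta chain, was at 17.8, 20, 13.9 and 25.7 CPM on CTD and at 84.5, 92.2, 117 and 181 CPM on HFC (log2 2.62, SE 0.24, adjusted p = 2.86e-05). H2-Aa, its alpha partner, was at 17.6, 23.9, 17.2 and 31.2 CPM against 104, 104, 138 and 215 CPM (log2 2.64), and H2-Eb1, the other beta chain, at 10.2, 13.3, 9.41 and 19.5 CPM against 62.6, 67, 93.2 and 139 CPM (log2 2.78). HFC 543 was the highest HFC liver and CTD 320 the highest CTD liver for all 3, and the diets stayed far apart. Ciita, the coactivator that switches these genes on, was at 0.99, 1.39, 0.988 and 3.05 CPM against 5.62, 5.12, 8.7 and 10.1 CPM (log2 2.18, SE 0.33, adjusted p = 0.000407), and Cd74, the invariant chain, rose by 2.38. Of 10 tested genes 9 rose (median 2.05), and H2-DMb2, a peptide exchange chain, was not called (0.78, adjusted p = 0.137). Their summed level was 95.5 to 195 CPM on CTD and 542 to 1130 CPM on HFC.

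MHC class II promoters carry a Y box, the letters CTGATTGG on either strand, which is bound by the factor NF-Y beside the complex that recruits CIITA. The 300-base window held it in 3 of 7 MHC class II genes with a window (42.9%), against 666 of 10463 (6.37%) of all tested genes with a window. Those 3 are H2-Aa, H2-Eb1 and H2-Oa, a chain that restrains peptide exchange and rose from a range of 0.149 to 0.539 CPM on CTD to a range of 0.539 to 1.04 CPM on HFC (log2 1.57, adjusted p = 0.0113). They are shown because they share these letters at a like distance from the RefSeq start, in GRCm38.p6 on the gene's strand, with the Y box in capitals. The H2-Aa stretch is chr17:34287837-34287904 on the minus strand, 51 bases before the start, the H2-Eb1 stretch chr17:34305775-34305842 on the plus strand, 62 bases before it, and the H2-Oa stretch chr17:34092303-34092370 on the plus strand, 46 bases before it.
H2-Aa: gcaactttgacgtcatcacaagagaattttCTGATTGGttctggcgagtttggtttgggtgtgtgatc
H2-Eb1: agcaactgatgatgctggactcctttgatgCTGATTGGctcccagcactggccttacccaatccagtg
H2-Oa: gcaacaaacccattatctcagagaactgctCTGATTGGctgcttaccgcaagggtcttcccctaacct

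Most macrophage markers and 6 of 11 genes of resident Kupffer cells rose on HFC. Cybb, the phagocyte oxidase, was at 16.9, 18.3, 24.3 and 24.6 CPM on CTD and at 39.3, 40.7, 54.5 and 67.6 CPM on HFC (log2 1.27), and Adgre1, a pan-macrophage surface receptor, at 15.8, 19, 22.2 and 24.9 CPM against 40.3, 32.7, 37.7 and 55.1 CPM (log2 1.02, SE 0.16, adjusted p = 0.000454). Of 25 tested macrophage markers 22 rose and 0 fell (median 1.02), with a summed level of 442 to 686 CPM on CTD and 918 to 1510 CPM on HFC. Among Kupffer genes Marco, a scavenger receptor, was at 8.76, 8.56, 12.6 and 14.3 CPM against 40.9, 30.7, 57.8 and 85.3 CPM (log2 2.28, SE 0.30), and Timd4, a receptor for dying cells, at 6.53 to 10.3 CPM against 14.6 to 20.5 CPM (log2 1.0). Clec4f, a Kupffer-specific lectin, was at 66, 74.8, 94 and 99.4 CPM against 96.7, 99.8, 90.5 and 134 CPM (log2 0.33, adjusted p = 0.076, and 0.43 with adjusted p = 0.0248 without CTD 320). Of 11 Kupffer genes 6 rose and 0 fell (median 0.62).

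Some genes of recruited and lipid-associated macrophages rose as well. Ccr2, the receptor of incoming monocytes, was at 1.19, 1.49, 1.4 and 2.15 CPM on CTD and at 4.78, 4.64, 5.15 and 5.1 CPM on HFC (log2 1.65), and Trem2, a lipid sensor, at 2.09 to 3.14 CPM against 5.93 to 13.2 CPM (log2 1.62). Both were separate between diets. Gpnmb, a glycoprotein of lipid-laden macrophages, was at 0.198, 0.0498, 0.156 and 2.29 CPM against 1.89, 3.09, 24.1 and 8.67 CPM (log2 3.73, adjusted p = 0.0704), and was called without CTD 320 (6.08, adjusted p = 0.0431), while without HFC 418 it was at 2.68 (adjusted p = 0.23). Fabp5, a fatty acid carrier that hepatocytes express too, fell from 57.9, 90.9, 61.6 and 133 CPM to 11.7, 24.5, 7.38 and 7.1 CPM (log2 -2.76, SE 0.47). Of 20 genes of this list 8 rose and Fabp5 alone fell (median 1.03). Their summed level of 1610 to 1940 CPM on CTD overlapped with 1740 to 2170 CPM on HFC.

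Inflammatory mediators rose from low levels. Acod1, which makes itaconate in activated macrophages, was at 0, 0.199, 0.156 and 0.584 CPM on CTD and at 1.84, 2.78, 5.11 and 5.48 CPM on HFC (log2 3.94, SE 0.54, adjusted p = 0.000266, and 4.96 without CTD 320). Tnf was at most 0.0996 CPM on CTD and at 0.419 to 0.83 CPM on HFC (log2 2.72), and Tnfaip3, the feedback inhibitor of NF-kappaB signalling, went from 3.95 to 6.07 CPM to 9.93 to 14.2 CPM (log2 1.30). Of 13 cytokine and itaconate genes 9 rose and 0 fell (median 0.94). Among CC chemokines Ccl5, which attracts T cells, went from 1.04 to 1.66 CPM to 3.23 to 7.3 CPM (log2 1.79) and Ccl2, which attracts monocytes, from 0.199 to 0.449 CPM to 0.922 to 2.41 CPM (log2 2.46). Of 12 CC genes 7 rose and 0 fell (median 1.57), with a median of 0.98 without HFC 418. When the 8 libraries were fitted alone, 4 of the 7 genes then tested rose. Cxcl9 and Cxcl10, induced by interferon gamma, went from 8.22 to 23 CPM to 33.4 to 59.2 CPM (log2 1.73) and from 1.44 to 3.48 CPM to 5.12 to 13 CPM (log2 1.96). Diets did not overlap for any of these 7 genes. Of 15 CXC and CX3C genes 5 rose and 0 fell (median 0.87). Of 28 interferon response and MHC class I processing genes 14 rose and 0 fell (median 0.46), among them the GTPases Gbp6 (1.51) and Igtp (1.18) and the immunoproteasome subunit Psmb8 (0.71).

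Genes of dendritic cells, neutrophils and T cells rose at lower levels, and the B cell calls depended on single animals. Irf8, a factor of dendritic cells and monocytes, went from 7.32 to 9.25 CPM to 14 to 19.8 CPM (log2 1.08, SE 0.13, adjusted p = 8.52e-05), and of 14 dendritic cell genes 9 rose and 0 fell (median 1.04). S100a9, a calcium-binding protein of neutrophils, went from 0.842 to 2.96 CPM to 4.11 to 10.6 CPM (log2 1.83), and of 11 neutrophil genes 7 rose and 0 fell (median 1.71). Their summed level was 6.98 to 15.7 CPM on CTD and 22.8 to 50.5 CPM on HFC, so neutrophil RNA remained scarce. Cd8a, the coreceptor of cytotoxic T cells, was at 0.792, 0.946, 0.676 and 1.08 CPM against 1.55, 1.55, 2.39 and 2.24 CPM (log2 1.14), and Trac, the T cell receptor alpha constant gene, rose by 1.48. Of 23 T and NK genes 11 rose and 1 fell (median 1.14), and 7 rose without HFC 543. The gene that fell was Zap70, a T cell kinase, at 5.25, 4.38, 7.02 and 1.71 CPM against 1.01, 2.21, 1.64 and 1.62 CPM (log2 -1.5, adjusted p = 0.0178), a call lost without CTD 313 or HFC 416. Of 12 B cell genes 3 rose and 0 fell (median 0.60), but 0 rose without CTD 305 or CTD 313 and 1 without HFC 416, 418 or 543, and the summed level of 31.4 to 98 CPM on CTD overlapped with 42.9 to 120 CPM on HFC.

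**Figure D4:**
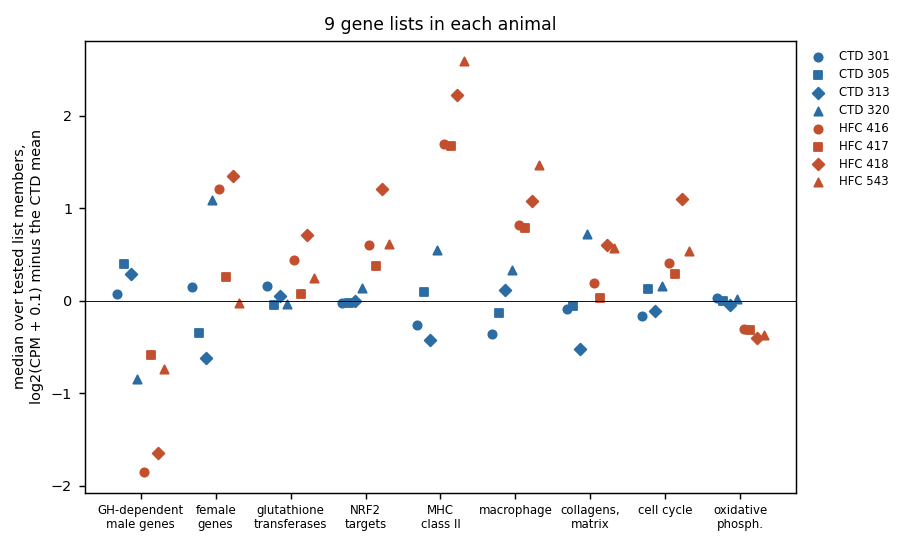
Median log2 level of 9 gene lists in each liver, relative to the mean of the 4 CTD livers. The 4 HFC livers lie above the CTD livers for macrophage and MHC class II genes and below them for oxidative phosphorylation, while the collagen list has CTD 320 at 0.72, above all HFC livers.

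Few markers of endothelium, in which c-Myc can be deleted in the companion line, passed the test in these controls. Pecam1, the CD31 adhesion molecule, was at 15.5 to 19.3 CPM on CTD and 16.9 to 22.5 CPM on HFC (log2 0.17, adjusted p = 0.373, and 0.40 with adjusted p = 0.0472 on library totals), and Stab2, a scavenger receptor of sinusoids, was at log2 -0.10 (adjusted p = 0.66). Of 28 endothelial genes 1 rose, Cdh5, VE-cadherin (log2 0.41, adjusted p = 0.0468), and 0 fell, with a median of -0.04 that turned to 0.18 with library totals. The Cdh5 call was lost when any animal other than CTD 320 or HFC 417 was left out, with adjusted p of 0.0928 to 0.149. Icam1, a leukocyte adhesion molecule of endothelium and other cells, was at 8.61, 9.86, 11.5 and 12.9 CPM against 21.9, 20.8, 28.6 and 23.9 CPM (log2 1.15, SE 0.13, adjusted p = 3.93e-05), with no overlap. Selp, P-selectin, was lower (-0.56, adjusted p = 0.0168), a call lost without HFC 418 (-0.50, adjusted p = 0.061) and with library totals (-0.33, adjusted p = 0.0811). Of 15 activation genes 3 rose and 1 fell (median 0.19), with 1 rising without CTD 305 or HFC 543. Of 13 angiocrine genes 2 rose and 0 fell (median 0.13), Notch1, a Notch receptor (0.63), and Inhbb, an activin chain (0.91). The share of all tested genes that rose was 10.6%.

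Most collagen genes did not pass the test, and CTD 320 alone made the diets overlap for Col1a1. That gene, the main fibrillar collagen, was at 4.51, 5.38, 3.17 and 34.9 CPM on CTD and at 9.97, 11.4, 20.7 and 27.5 CPM on HFC (log2 0.52, SE 0.79, adjusted p = 0.691, and 2.0 with adjusted p = 0.0603 without CTD 320). Col3a1, its partner, was at 20, 22.1, 9.83 and 58.2 CPM against 36.7, 35.3, 53.3 and 63.9 CPM (log2 0.78, adjusted p = 0.33, and 1.46 with adjusted p = 0.0485 without CTD 320). The 4 HFC livers were above CTD 301, 305 and 313 for both. Of 34 matrix genes 2 rose, Col5a3, a minor fibrillar chain (0.42), and Tgfb1, the fibrogenic cytokine (0.75, SE 0.18, adjusted p = 0.00893), and 1 fell (median 0.36, and 0.16 without CTD 313 or 0.17 without HFC 418). Without CTD 320, 4 rose and 0 fell (median 0.56). Of 15 matrix metalloproteinases and inhibitors 0 rose and 1 fell, Reck, a membrane inhibitor (-0.64, median 0.30), and Timp1 was at 0.0495, 0.348, 0.156 and 3.1 CPM against 0.126, 0.221, 0.997 and 0.539 CPM (log2 -0.97, adjusted p = 0.552). Without CTD 320 the Timp1 value turned to 1.34 (adjusted p = 0.376), and without HFC 418 it was -1.64. Of 18 stellate cell genes 0 rose and 1 fell, the peptide receptor Vipr1 (-0.38, median 0.04), and Acta2, the smooth muscle actin of activated stellate cells, was at 0.891 to 2.2 CPM against 0.758 to 1.94 CPM (log2 -0.42, adjusted p = 0.366). The Reck call was lost without any animal but CTD 313 or HFC 417, with adjusted p up to 0.096, and the Vipr1 call without any but CTD 305 or 313, with adjusted p up to 0.139. With library totals both were lost (Reck adjusted p = 0.145, Vipr1 0.42), while 4 metalloproteinase and inhibitor genes and 1 stellate gene rose.

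Among bile duct genes Tff3, a secreted trefoil peptide, fell from 7.28, 29.2, 14.8 and 24.7 CPM to 0.67, 2.96, 1.36 and 3.15 CPM (log2 -3.23, SE 0.48, adjusted p = 0.00057). Krt8, a keratin that hepatocytes share with ducts, was at 101, 109, 110 and 106 CPM against 157, 171, 292 and 188 CPM (log2 0.92), and Muc1, a membrane mucin, rose by 1.37. No overlap was seen for these 3 genes. Krt19, the duct keratin, was at 1.46 to 3.64 CPM against 1.05 to 2.69 CPM (log2 -0.28, adjusted p = 0.639), and Spp1, osteopontin, was at 0.72 (adjusted p = 0.231). Of 14 duct genes 5 rose and Tff3 fell (median 0.70).

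Proliferation genes were raised in a way that depended on single animals. Mki67, the proliferation antigen, was at 1.49, 3.78, 2.44 and 4.58 CPM on CTD and at 6.45, 4.28, 14.3 and 7.22 CPM on HFC, with HFC 418 the highest (log2 1.39, adjusted p = 0.0479), and without HFC 418 it was at 0.95 (adjusted p = 0.174). Its adjusted p was 0.0588 to 0.126 without CTD 301, 305 or 313 or HFC 416 or 543. Rrm2, a ribonucleotide reductase chain, went the other way, from 7.23 to 9.83 CPM to 4.11 to 5.86 CPM (log2 -0.88). Of 29 cell cycle genes 10 rose and 1 fell (median 0.76), but the number that rose was 1 without CTD 301 or HFC 418, 3 without CTD 313, 4 without CTD 305 and 5 without HFC 543. Of 17 p53 targets 8 rose and 1 fell (median 0.45), such as Eda2r, a death-domain receptor, at 0.347 to 1.66 CPM against 2.35 to 8.01 CPM (log2 2.12), with 5 rising without HFC 543, while Cdkn1a was not called (0.51, adjusted p = 0.608).

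The remaining groups held stress response, clock, ribosome and lysosome genes. Gdf15, a stress hormone, was at 2.52, 13.6, 7.18 and 7.18 CPM on CTD and at 38.6, 29.1, 64.9 and 25.4 CPM on HFC, without overlap (log2 2.37, SE 0.55, adjusted p = 0.00964). Hsp90b1, a chaperone of the endoplasmic reticulum, fell from 649 to 1130 CPM to 503 to 679 CPM (log2 -0.64). Of 24 genes of the unfolded protein and integrated stress responses 5 rose and 4 fell (median 0.16), with 3 rising without CTD 301, CTD 313 or HFC 418 and 2 without HFC 543, and 2 falling without CTD 305 or HFC 418. On library totals 7 of them rose and 1 fell. Of 19 clock genes 3 fell and 0 rose (median -0.28), with 1 falling without HFC 418, and Arntl, the core activator, was at log2 -0.38 (adjusted p = 0.395). Of 27 ribosome biogenesis and nucleotide synthesis genes, many of them Myc targets, 0 rose and 1 fell (median -0.02), against 8 and 0 with library totals (median 0.20). Of 42 ribosomal protein genes 2 rose and 1 fell (median -0.02), against 12 and 0 with library totals (median 0.20), and each of those 3 calls was lost in some of the fits without 1 animal. Of 30 lysosome genes 11 rose and 1 fell (median 0.16), such as Ctss, a cysteine protease of phagocytes (1.16), Hexa, a hexosaminidase (0.57), and Psap, a sphingolipid activator (0.48), with 7 rising without CTD 301 or 305. Tfeb, a lysosomal regulator, was at 0.05 (adjusted p = 0.778).

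Whether the controls responded as the companion line did was tested on the difference of the diet effects. In males with the endothelial c-Myc deletion (KO, 4 on each diet), 4102 of the 14078 genes (29.1%) were called for diet, 2184 higher (15.5%) and 1918 lower (13.6%). By edgeR, 0 genes (0.00%) differed between CT and KO in their diet effect at an adjusted p under 0.05, with 852 at an unadjusted p under 0.05, and DESeq2 called 5. Among those 5, named after their values were seen, were Treml4, a receptor of myeloid cells, with a log2 diet effect of 0.90 in CT and 2.03 in KO, Kcna2, a potassium channel (0.60 and 1.54), and Clec1b, the CLEC-2 lectin (0.27 and 1.21). These 3, picked from the 5, had the larger effect in KO, and the rest of the 5 are not described here. The log2 diet effect in KO was -7.09 for Cyp8b1, -4.22 for Cyp7a1, 2.68 for Adam11 and -2.47 for Bhmt, and H2-Ab1 was at 3.44 and Cd74 at 3.39 in KO, against 2.62 and 2.38 in CT. For macrophage markers the KO males had 25 of 25 higher with a median of 1.81, for MHC class II 10 of 10 with 3.06, and for matrix genes 14 higher and 2 lower of 34 with 0.77. Gdf15 was at 0.77 and Fgf21 at 0.86 in KO.

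Control females (3 on each diet) were compared in a joint fit of 14685 genes. There 1421 genes (9.68%) were called for diet, 600 higher (4.09%) and 821 lower (5.59%). The difference from the male effect passed edgeR's threshold for 1 gene (0.00681%), Car2, a cytosolic carbonic anhydrase (chromosome 3, 14886273 to 14900770). At an unadjusted p under 0.05 it did for 1013 genes, and DESeq2 called 44. Car2 was at 5.99, 5.97, 4.73 and 5.34 CPM on CTD and at 6.2, 6.14, 7.1 and 5.85 CPM on HFC in males, overlapping between diets (log2 0.20, adjusted p = 0.238). In females its log2 diet effect was -1.08 (SE 0.13, adjusted p = 1.33e-05), and the male effect was higher by 1.30 (SE 0.18, adjusted p = 0.00127). Counts per list are given side by side, with 3 females per group, and no member of these 3 lists was called by edgeR for a difference between the sexes. In them 1 of 18 NRF2 genes rose in females against 13 in males, 3 of 25 macrophage markers against 22, and 7 of 10 MHC class II genes against 9. The list median was 0.88 in females and 1.02 in males for macrophage markers. For MHC class II genes it was 1.87 and 2.05, and for NRF2 genes 0.34 and 0.73. Cyp3a11 was at 0.62 in females (adjusted p = 0.318) and Gsta1 at 3.57 (adjusted p = 0.104), with Cyp8b1 at -8.12 and Bhmt at -3.01.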

How the data were processed

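RNA from whole liver, 1 library per mouse, was sequenced on a BGI DNBSEQ platform per the labels' protocols. The authors deposited whole-number read counts per gene and CPM values, and the deposited CPM equal each count over its library total for 100% of values within 1e-04. FastQC, edgeR and the genome build GRCm38 (mm10) are named, without versions, per the submitters' processing notes. Neither aligner, counter, annotation nor strand setting is given in the sources used here, so counts of near-identical genes (Mup, Serpina1, Gsta1 with Gm10639, and the Cyp2a, Cyp2c and Cyp3a clusters) are uncertain.

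Groups follow the labelled diet, genotype and sex. Each animal has its own number, and nothing says whether animals shared litters or cages. The p-values of the male fit weigh the diet effect against the spread between animals, estimated over all 16 male libraries, KO included. Pairs of libraries of a group differed by more than sampling noise (chi-square per degree of freedom 26 or more in 12 pairs). From the deposited counts, edgeR 4.0.16 in R 4.3.3 was run on the 16 male libraries (4 groups) with TMM factors, filterByExpr and a robust quasi-likelihood fit. The F test of HFC minus CTD in CT males was adjusted by Benjamini-Hochberg over 14078 genes and called at an adjusted p under 0.05. Printed CPM are TMM-normalised, so they differ from the deposited CPM. The SE is the log2 fold change over the square root of F, an approximation. CT females entered a joint fit of 28 libraries. The steps were tested on simulated counts.

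The 55 gene lists hold 1082 genes, 1032 of them tested, and 39 genes are in several lists. The comparison, the lists and the genes were chosen with earlier results of these data known, and lists carry no test. The rule for named genes took Myc, the 12 largest rises and 12 largest falls (called, at least 5 CPM in a group, no overlap), the 12 smallest p, and per list up to 4 called members by p, or 2 where none was called. Not every such gene is reported, and some items are not reported here. Further genes were added for their roles, and 22 (Slco1a1, Abcb11, Abcb4, Abcc3, Abcc4, Fdps, Sqle, Idi1, mt-Co1, Mup3, Mup20, Txnrd1, Cd74, H2-DMb2, H2-Oa, Fabp5, Ccl2, Zap70, Treml4, Kcna2, Clec1b and Car2) after their values were seen. Coordinates are from GENCODE M21, counted from 1, for 97.1% of tested genes, and promoters from RefSeq GRCm38.p6. DESeq2 1.42.0, other scalings, no filter, the 8 libraries alone and leaving out each animal were alternatives.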

Additional observations from a re-analysis of the deposited data

Results flagged for a closer look

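For the 173 genes named above, each diet group of 4 animals was checked for a liver whose gap to the nearest other was, as a share of the group's range, above Dixon's critical value. Such a liver was found in 18 of 346 groups (5.2%), and chance gives about 1 in 20. CTD 313 and CTD 320 account for 5 each, HFC 543 for 4, HFC 418 for 3 and CTD 301 for 1.

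In CTD 320, Col1a1 was at 34.9 CPM (3.17 to 5.38 CPM in the other CTD livers), Timp1 at 3.1 CPM (0.0495 to 0.348), Gpnmb at 2.29 CPM (0.0498 to 0.198), H2-Oa at 0.539 CPM (0.149 to 0.208) and Abcc4 at 3.32 CPM (2.34 to 2.38). In CTD 313, Saa1 was at 986 CPM (23.8 to 88.7), Orm3 at 7.54 CPM (1.49 to 1.59) and Glul at 1150 CPM (907 to 938), while Abcb11 was low at 497 CPM (564 to 577) and Reck at 5.2 CPM (7.27 to 7.53). In CTD 301, Pck1 was low at 2360 CPM (3770 to 3990).

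In HFC 418, Gsta1 was at 159 CPM (5.39 to 23 CPM in the other HFC livers), its close copy Gm10639 at 20.0 CPM (0.883 to 2.7) and Nr1i3 at 290 CPM (248 to 255). In HFC 543, Cyp8b1 was at 3.36 CPM (0.199 to 0.441), Selenbp2 at 38.1 CPM (7.46 to 12), Timd4 at 20.5 CPM (14.6 to 15.3) and Eda2r at 8.01 CPM (2.35 to 3.05).

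The diet effect on Car2 differed between the sexes by 1.30 log2, male minus female, in the joint fit, with edgeR adjusted p = 0.00127.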

How the results depend on the processing

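The number of genes called for diet was 2820 with TMM scaling. It stayed within 1.5 times of that with RLE factors (2804), without a low-count filter (2439), with the 8 libraries alone (2240) and with DESeq2 (3201). With library totals 4535 genes were called, 4125 higher and 410 lower, so the balance went from 53.1% to 91% higher, and 1906 genes were called under both scales. Leaving out 1 animal in turn gave 1753 to 3374 calls, 989 to 1791 higher and 764 to 1583 lower, with the lowest without HFC 418 and the highest without CTD 320. The difference between CT and KO males was called for 0 genes in every edgeR fit and for 5 with DESeq2. The difference between CT males and CT females was called for 1 gene, for 1 to 2 when an animal was left out, for 3 with library totals and for 44 with DESeq2. The causes of these shifts were not tested. Of 264 named genes none changed sign while called, 25 lost the call with library totals, 16 with the 8 libraries alone, 30 without HFC 418 and 9 without CTD 320. Of 55 list medians 25 moved by more than the animals' spread with library totals, and 0 to 2 under each other setting. No paired analysis was possible because every animal has its own number and the diets share none. At 22154774 to 22387076 counts a library, a level of 0.0498 CPM (Gpnmb in CTD 305) rests on about 1 read, so ratios of the rarest genes, such as Tnf, carry wide counting error.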

Other observations

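The female-predominant gene list showed the spread between animals already described for the male-predominant list. Its median, relative to the CTD mean, was 0.15, -0.35, -0.62 and 1.1 log2 in CTD 301, 305, 313 and 320 and 1.21, 0.26, 1.35 and -0.02 in HFC 416, 417, 418 and 543. CTD 320 thus lay near HFC 416 and 418, and HFC 417 and 543 lay within the CTD range.

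The core of the sterol response element, TCACNCCAC on either strand, was in the promoter window of 1 of 17 SREBP2 genes with a window (5.88%), Hmgcs1, against 155 of 10463 tested genes with a window (1.48%). Hmgcs1 was not called for diet, and 0 of the 12 called SREBP2 genes with a window held the core.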
